A study of Homo sapiens with 6 samples.

Results

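The chromosomal passenger complex and the cytokinesis machinery were examined as 10 genes: the passenger subunits AURKB, INCENP, CDCA8 and BIRC5, and the cytokinesis genes ANLN, ECT2, RACGAP1, PRC1, CEP55 and CIT. They were chosen by symbol, and all 10 were found once each among the 58825 Ensembl gene identifiers of the table. The libraries came from cells labelled SKOV3, a human ovarian cancer cell line, transiently transfected with a non-targeting control siRNA, named NC, or with si-EIF5A2, in 3 libraries each, and the RNA was taken at 48 h. EIF5A2 encodes a translation factor. The comparison asks how the levels of these genes differed once EIF5A2 was knocked down. A single cell line and a single siRNA duplex were used for these libraries, and the methods state for experiments in general that they were done 3 times, but not whether the 3 libraries of a group came from separate cultures, so p-values measure the spread between these libraries only.

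The chromosomal passenger complex consists of the kinase Aurora B (AURKB), the scaffold INCENP, and Borealin (CDCA8) and Survivin (BIRC5), which place the complex on the inner centromere. At anaphase the complex moves to the central spindle, where PRC1 bundles antiparallel microtubules and RACGAP1, together with KIF23, forms centralspindlin. Centralspindlin recruits the guanine nucleotide exchange factor ECT2, which activates RhoA. Anillin (ANLN) and citron kinase (CIT) organize the contractile ring and the midbody, and CEP55 brings the abscission machinery to the midbody. Many of these mRNAs are known to be made periodically and to peak in G2 and mitosis.

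Total counts ranged from 46900204 to 74142267 per library. Low values lay near multiples of 3.78 counts, so a sequenced fragment seems to have been counted more than once and the depth in fragments was lower than these totals. A level of 3 fragments corresponded to 0.153 to 0.242 CPM (the usual count scaled to library size, here to the unadjusted totals), a limit that covers counting error only. All other CPM were scaled with TMM factors. EIF5A2 had 27.8, 29.8 and 29.9 CPM in NC against 2.76, 4.04 and 4.27 CPM in si-EIF5A2 libraries, so the labels and the targeted gene went together. Of the markers written down for an epithelial ovarian cancer line, KRT7, KRT8, KRT18 and PAX8 stood at 382, 608, 418 and 106 CPM on average in NC, whereas KRT19 was at 3.22 CPM, EPCAM at 1.55 CPM and MUC16 at 0 counts in every library. After knockdown KRT7, KRT8 and PAX8 were called lower, with log2 fold changes of -0.87, -0.69 and -0.80, and KRT18 was not called (-0.08). ERBB2, which is known to be amplified and highly expressed in SKOV3, had only 45.9 ± 2.30 CPM (SD, n = 3) in NC, at percentile 76.5 of the genes tested. This level goes against that trait, and the cells are therefore named by their label here. Of 8 markers of blood, endothelium and liver, PTPRC and CD3E had 0 counts in all libraries and PECAM1 was the most abundant, at 1.87 CPM in NC and 0.318 CPM after knockdown (not called).

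All 10 genes were downregulated after EIF5A2 knockdown. A gene was called when its adjusted p was under 0.05 (edgeR's quasi-likelihood test, Benjamini-Hochberg adjustment over the 16208 genes tested) and its fold change exceeded 1.5. All 10 were called, against 24.6% of all genes tested in either direction and 13.6% called in the downward direction. In all 10, every si-EIF5A2 library lay below every NC library, which was the case for 26.5% of the genes tested. The log2 fold changes ran from -3.47 (CIT) to -1.17 (ECT2) with a median of -2.36, while the median of all genes tested was -0.01. Summed over the 10 genes, the level was 626, 726 and 705 CPM in the NC libraries and 150, 153 and 146 CPM in the si-EIF5A2 libraries, so that 21.8% of the NC sum was left. In bulk RNA, fewer cells in G2 and mitosis and less of these mRNAs per cell cannot be told apart.

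**Figure D1:**
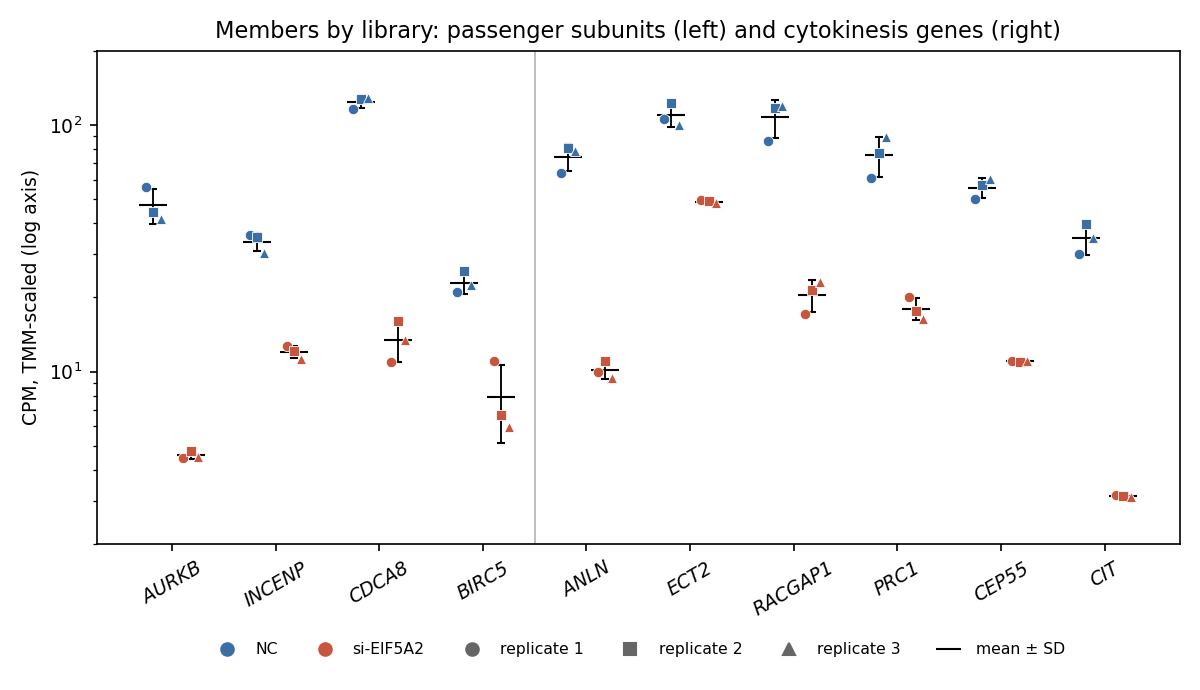
CPM of the 10 genes (log axis) in each NC and si-EIF5A2 library; marker shapes give the replicate number and black bars the mean ± SD of 3 libraries. The groups are separate in all 10 genes, with the si-EIF5A2 libraries of CIT near 3 CPM and those of ECT2 near 49 CPM.

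The promoters of the genes were also examined, but a link between promoter letters and the fall was not tested. RefSeq promoter windows (GRCh38.p14, 250 bases before to 50 bases after a start site) were matched for 8 of the 10 genes, all but BIRC5 and RACGAP1. They were searched on both strands for the cell cycle genes homology region (CHR), spelled TTTGAA or TTCGAA, which is known as the element bound by MuvB complexes with MYBL2 and FOXM1 or with repressor E2F proteins. INCENP, CDCA8, ANLN, ECT2, PRC1, CEP55 and CIT held the CHR letters, that is 7 of 8, while 16.4% of all 35116 windows did. Here and below, a gene counted if any of its windows matched. AURKB and ECT2 had matches in more than 1 window, and windows without a match were not counted per gene. The shares of all windows count single windows, so the measures are not quite alike. In INCENP, CDCA8, ANLN and PRC1 a forward match began 10, 23, 20 and 20 bases before the start site. The matches shown for ECT2, CEP55 and CIT began farther upstream, 115, 116 and 208 bases before the start. Other matches began 3 bases before it in CEP55, and 10 and 34 bases after it in CIT and ECT2. At another start of ECT2, matches began 242 and 182 bases before it. The CHR matches of INCENP, CDCA8, ANLN and PRC1, with 1 upstream match each of ECT2, CEP55 and CIT, are shown on the strand of the gene with the match in capitals.
INCENP: ggattggctgagccttcagtTTTGAAaatc
CDCA8: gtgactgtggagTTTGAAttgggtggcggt
ANLN: ctgaaattcaaaTTTGAAcggctgcagagg
PRC1: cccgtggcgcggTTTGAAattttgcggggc
ECT2: tcgttgggcttaTTTGAAacacacgcacaa
CEP55: tactctccgcccTTCAAAggcggcagccaa
CIT: gtaaccgccaatTTCAAActtccaagacct

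These 30-base stretches lie at chr11:62123981-62124010 (plus strand, INCENP), chr1:37692481-37692510 (plus, CDCA8), chr7:36389830-36389859 (plus, ANLN), chr15:90994538-90994567 (minus, PRC1), chr3:172750599-172750628 (plus, ECT2), chr10:93496484-93496513 (plus, CEP55) and chr12:119877511-119877540 (minus, CIT). The stretches of INCENP, CDCA8, ANLN and PRC1 lie inside the gene as annotated by GENCODE release 29, in which these genes begin farther upstream. In CEP55 and CIT the match is on the opposite strand. The ANLN match is preceded directly by the same letters on the opposite strand, so that both together read as an inverted repeat. The CCAAT box, the binding site of NF-Y, was searched as CCAAT on both strands. It was found in 7 of the 8 genes, all but ANLN, and in 34.6% of all windows. In CDCA8 a reversed CCAAT overlaps the end of the CHR match. The E2F letters TTTCGCGC, TTTGGCGC, TTTCCCGC and TTTGCCGC were in 0 of the 8 genes and in 3.31% of all windows. Only these exact letters were searched, and with so small a share of all windows, their absence from 8 genes says little about E2F sites. The AURKB windows held the CCAAT letters and no CHR letters.
AURKB: accagcgcccagATTGGggctagtgtgctg

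This stretch, at chr17:8210361-8210390 on the minus strand and likewise inside the gene as GENCODE annotates it, is shown because AURKB had the largest fall of the passenger subunits; the capitals mark the CCAAT box read on the opposite strand.

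Among the passenger subunits, AURKB (chr17:8204733-8210600, minus strand, GRCh38), the kinase that corrects faulty attachments of chromosomes to microtubules, had 56.2, 44.5 and 41.5 CPM in NC libraries and 4.46, 4.79 and 4.52 CPM in si-EIF5A2 libraries. The si-EIF5A2 libraries were close together and far below NC. The level was 10.3-fold lower, a log2 fold change of -3.37 (standard error, SE, 0.14, adjusted p = 5.17e-06 by edgeR's quasi-likelihood test). AURKC, the paralog that acts mainly in germ cells, did not pass the filter on low counts, with at most 0.268 CPM in any library.

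CDCA8 (chr1:37692418-37709719, plus strand), which encodes Borealin, was the most abundant of the 4 subunits in NC. It had 116, 127 and 129 CPM in NC against 10.9, 16 and 13.5 CPM in si-EIF5A2 libraries, and the log2 fold change was -3.20 (SE 0.15, adjusted p = 6.51e-06, edgeR). Its fall was thus of nearly the same size as that of AURKB.

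INCENP (chr11:62123973-62153163, plus strand) encodes the scaffold that binds and activates Aurora B. Its levels were 35.7, 35.1 and 30.3 CPM in NC against 12.7, 12.1 and 11.3 CPM in si-EIF5A2 libraries, without overlap. The log2 fold change was -1.49 (SE 0.11, adjusted p = 3.84e-05, edgeR), with 35.7% of the NC level left.

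BIRC5 (chr17:78214186-78225636, plus strand) encodes Survivin, which also belongs to the inhibitor of apoptosis family. The values were 21.0, 25.5 and 22.4 CPM in NC against 11.0, 6.65 and 5.98 CPM in si-EIF5A2 libraries. Replicate 1 of si-EIF5A2 stood above the other two of its group, and the groups did not overlap. BIRC5 had a log2 fold change of -1.55 with the largest standard error of the 10 genes (0.23, adjusted p = 0.00163, edgeR), and leaving out that library moved it to -1.87.

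Levels were also set per length, as CPM per kb of exon, since the 4 subunits occur in 1 complex. The length was the union of all annotated exons of a gene, which can exceed that of the transcripts expressed. Ranks between genes depend on this length, and the transcripts in use were not examined. In NC, CDCA8 had 50.2 ± 2.84, AURKB 21.2 ± 3.47, INCENP 7.53 ± 0.660 and BIRC5 6.03 ± 0.598 CPM per kb (SD, n = 3 each). In si-EIF5A2 libraries, CDCA8 had 5.45 ± 1.03, INCENP 2.69 ± 0.157, BIRC5 2.06 ± 0.707 and AURKB 2.05 ± 0.0780 CPM per kb (SD, n = 3 each). CDCA8 was highest in all 6 libraries, and AURKB was above INCENP in every NC library and below it in every si-EIF5A2 library. In si-EIF5A2 libraries, AURKB and BIRC5 did not differ beyond their spread, nor did BIRC5 and INCENP. The ratio of AURKB to INCENP per length was 3.14, 2.53 and 2.73 in NC and 0.702, 0.790 and 0.801 in si-EIF5A2 libraries. That of CDCA8 to BIRC5 was 8.50, 7.70 and 8.86 in NC and 1.54, 3.71 and 3.48 in si-EIF5A2 libraries. Neither ratio overlapped between the groups. The ratios of 3 gene pairs were compared, chosen after their values were seen, and each gave a 2-sided exact permutation p of 0.10 (0.10 after adjustment over the 3 pairs), the smallest that 3 against 3 libraries can give. Since the groups did not overlap in any of these pairs, this p could take no other value and adds no support.

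**Figure D2:**
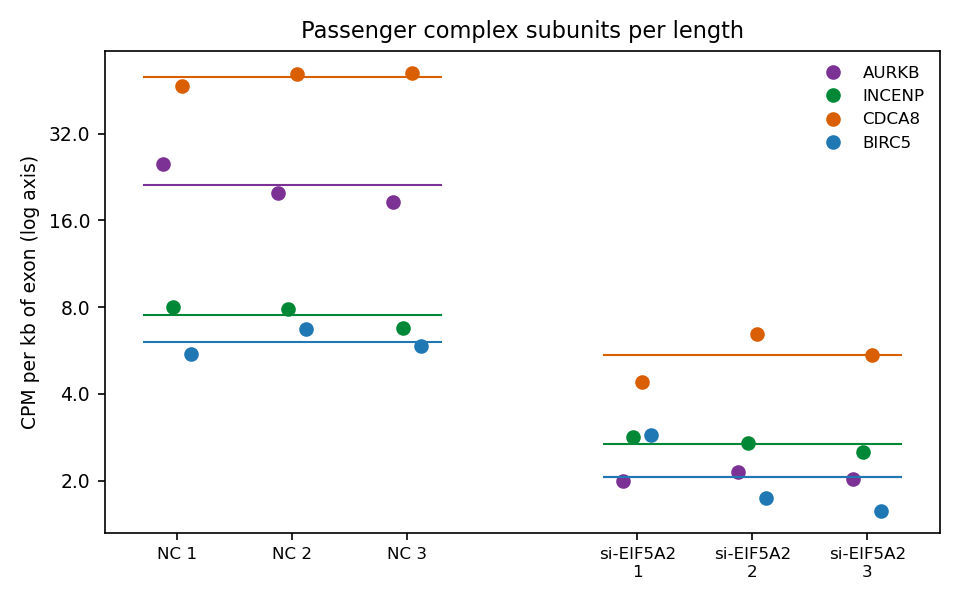
CPM per kb of exon (log axis) of the 4 passenger subunits in each library, with lines at the mean of each group (those of AURKB and BIRC5 coincide in si-EIF5A2 libraries). With lengths from the union of all annotated exons, CDCA8 is highest throughout. AURKB moves from above INCENP in NC (21.2 against 7.53) to below it in si-EIF5A2 libraries (2.05 against 2.69).

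Of the cytokinesis genes, CIT (chr12:119685790-119877291, minus strand), which encodes citron kinase of the midbody, fell most. It had 29.9, 39.8 and 34.7 CPM in NC against 3.17, 3.14 and 3.11 CPM in si-EIF5A2 libraries, 9.02% of NC on average. Its log2 fold change of -3.47 (SE 0.14, adjusted p = 4.92e-06, edgeR) was the largest of the 10 genes. KIF14, the kinesin known to bind citron kinase, averaged 11.0 ± 1.44 CPM in NC and 0.731 ± 0.351 CPM after knockdown (SD, n = 3 each), and its log2 fold change was -3.90 (adjusted p = 0.000191, edgeR).

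ANLN (chr7:36389806-36453791, plus strand) encodes anillin, which links actin, myosin, septins and RhoA in the ring. It had 63.8, 80.6 and 78.6 CPM in NC against 9.96, 11.0 and 9.40 CPM in si-EIF5A2 libraries. Libraries within a group were close, and the change on the log2 scale was -2.88 (SE 0.12, adjusted p = 5.45e-06, edgeR). Its exons share 78 bases with KIAA0895 on the opposite strand, as do those of RACGAP1 with AQP6 (137 bases), of PRC1 with PRC1-AS1 (406) and of CIT with AC002563.1 (81). No source states whether strand was used in counting.

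RACGAP1 (chr12:49976923-50033136, minus strand) is the GTPase-activating subunit of centralspindlin. It had 86.1, 117 and 119 CPM in NC against 17.1, 21.4 and 23.0 CPM in si-EIF5A2 libraries, and in both groups replicate 1 was the lowest. The log2 fold change was -2.39 (SE 0.17, adjusted p = 3.73e-05, edgeR). KIF23, the motor subunit, had 30.4, 34.3 and 37.3 CPM in NC against 1.98, 1.59 and 1.77 CPM in si-EIF5A2 libraries. The log2 fold change, -4.25 (SE 0.15, adjusted p = 4.44e-06, edgeR), was larger than that of any of the 10 genes. The ratio of KIF23 to RACGAP1 per length was 0.241, 0.200 and 0.214 in NC and 0.0788, 0.0508 and 0.0525 in si-EIF5A2 libraries, the third of the pairs mentioned above. The pseudogene RACGAP1P had at most 4 counts in any library.

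ECT2 (chr3:172750682-172821474, plus strand), the exchange factor that activates RhoA at the cell equator, changed least. It had 106, 123 and 100 CPM in NC against 49.6, 49.1 and 48.1 CPM in si-EIF5A2 libraries, 44.6% of NC on average. The log2 fold change of -1.17 (SE 0.09) still had an adjusted p of 5.99e-05 in the edgeR fit. The gene lies on the same chromosome arm as EIF5A2, 1842 kb away. Per length, again the union of annotated exons, ECT2 (20.0 ± 2.10 CPM per kb) and RACGAP1 (23.9 ± 4.12 CPM per kb) did not differ beyond their spread in NC. In si-EIF5A2 libraries ECT2 had 8.90 ± 0.141 and RACGAP1 4.57 ± 0.680 CPM per kb (SD, n = 3 each).

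PRC1 (chr15:90966038-90995629, minus strand), the microtubule bundling protein of the central spindle, had 61.2, 76.8 and 89.0 CPM in NC against 20.0, 17.7 and 16.4 CPM in si-EIF5A2 libraries. The NC libraries were spread widely, and all were at least 3 times the highest si-EIF5A2 library. The log2 fold change was -2.07 (SE 0.15, adjusted p = 3.91e-05, edgeR). The exons of PRC1 share 3181 bases with AC068831.7 on the same strand, which held 1161 counts over the 6 libraries, so the PRC1 counts are less certain.

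CEP55 (chr10:93496632-93529092, plus strand) recruits the abscission machinery to the midbody. It had 50.1, 56.9 and 60.3 CPM in NC against 11.1, 10.9 and 11.1 CPM in si-EIF5A2 libraries, which were almost equal. The log2 fold change was -2.34 (SE 0.10, adjusted p = 5.45e-06, edgeR).

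The other genes of the machinery were taken as 4 lists with 59 genes, of which 57 were tested. Of the 8 partners and substrates of the passenger complex, all 7 genes tested were called lower in si-EIF5A2 libraries, beside 13.6% of all genes tested. Their median log2 fold change was -2.53. KIF20A, the kinesin that carries the complex to the central spindle, stood at 98.5 ± 9.86 CPM in NC (SD, n = 3), and 10.2% of this was left, a log2 fold change of -3.30. KIF2C, a microtubule depolymerase and Aurora B substrate, followed with -2.98. HASPIN, BUB1, SGO1, SGO2 and CDCA2 made up the rest, with AURKC not tested.

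Of 8 central spindle genes 6 were called, all lower, beside 13.6% of all genes tested called lower. The median log2 fold change of the list was -2.57. Besides KIF23 and KIF14, PLK1, the kinase that primes RACGAP1 for ECT2 binding, was at 167 ± 17.9 CPM in NC and 19.5 ± 3.69 CPM after knockdown (SD, n = 3 each) and had a log2 fold change of -3.10. The microtubule plus-end proteins CLASP1 (0.38) and CLASP2 (-0.28) were not called.

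Of 21 contractile ring genes tested, 7 were called lower and 1 higher, beside 13.6% and 11.1% of all genes tested, and the median log2 fold change was -0.16. With no limit on the fold change, 8 were lower and 6 higher at an adjusted p under 0.05 (edgeR), that is 14 of 21 beside 36.9% of all genes tested. RHOA, the GTPase at the head of the ring pathway, had 771, 822 and 775 CPM in NC against 760, 814 and 766 CPM in si-EIF5A2 libraries. These ranges overlapped, and its log2 fold change was -0.02 (SE 0.07, adjusted p = 0.879, edgeR). The largest falls were those of DIAPH3, a formin that nucleates actin filaments, with a log2 fold change of -1.86 and 4.95 ± 0.767 CPM after knockdown (SD, n = 3), and of SEPTIN9, a filament-forming GTPase. SEPTIN9 had 301, 164 and 282 CPM in NC against 59.0, 69.2 and 84.2 CPM in si-EIF5A2 libraries, so the NC libraries were far apart but did not overlap with si-EIF5A2. MYL9, a myosin regulatory light chain, was the gene called higher, at 14.9 ± 2.06 CPM in NC and 25.7 ± 3.11 CPM after knockdown (SD, n = 3 each), 0.78 on the log2 scale.

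The abscission list, which holds the ESCRT-III subunits and their partners, had a median log2 fold change of 0.17. Of 21 genes tested, 3 were called lower and 2 higher, and 16 were not called, so 23.8% of the list was called beside 24.6% of all genes tested. The proteins that CEP55 recruits directly, ALIX (PDCD6IP) and TSG101, had log2 fold changes of 0.18 (adjusted p = 0.169) and 0.17 (adjusted p = 0.189) in the edgeR fit. CHMP4B, the main filament subunit, had 153, 151 and 143 CPM in NC against 229, 240 and 249 CPM in si-EIF5A2 libraries, a rise of 0.69 on the log2 scale. CHMP1A rose as well (1.07), whereas its relative CHMP1B (-1.03) and the VPS4 cofactor VTA1 (-0.86) fell.

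**Figure D3:**
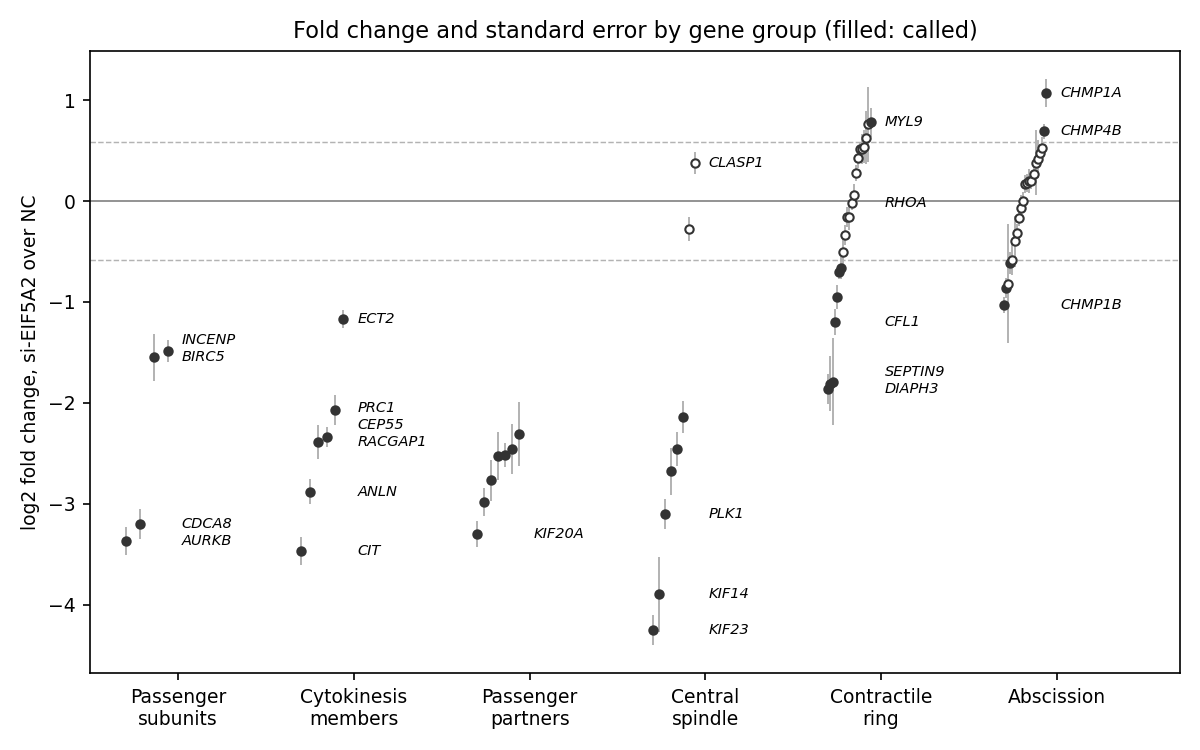
Log2 fold change (si-EIF5A2 over NC) with its standard error for every gene tested of the 6 groups; filled points are called genes, dashed lines the fold change limit of 1.5, and selected genes are named. The passenger and central spindle groups lie mostly below -1, while the contractile ring and abscission groups are spread around 0.

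Markers of cell cycle stage moved with the 10 genes. AURKB, CDCA8, BIRC5, ANLN and ECT2 are themselves on the G2/M marker list distributed with the Seurat software. So are KIF2C, BUB1 and CDCA2 of the passenger partners and KIF23, KIF20B and NUSAP1 of the central spindle list. The marker list and these pathway lists are therefore not separate sets. Without the members, 49 genes of that list were left, and 45 were called, all lower, beside 13.6% of all genes tested called lower. The median log2 fold change of the 49 was -2.38, near the -2.36 of the members, and 34.9% of their NC sum of CPM was left. That sum gives most weight to abundant genes such as TUBB4B (781 CPM in NC, 360 CPM after knockdown) and RANGAP1 (368 and 400 CPM, not called). Of 43 S phase markers, 36 were called, all lower, beside the same 13.6%. The median of the 43 was -1.70, and 44.2% of their NC sum was left. The part of cell cycle stage in the fall of the 10 genes was not tested.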

How the data were processed

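SKOV3 libraries (3 NC, 3 si-EIF5A2) were analysed from 1 table. The authors sequenced paired-end mRNA libraries, ran StringTie and ballgown, and deposited whole-number estimated counts for each gene and library, not pooled, so rounding changed nothing; they are not on the scale of fragments, with steps of 3.74 to 3.84 counts. Bowtie 0.12.2 and mouse genome builds, named in the submitters' processing notes, do not go with the human identifiers; the build is otherwise not given in the sources used here. Symbols came from the reference (58472 of 58825 identifiers), positions and exon lengths from GENCODE release 29 (GRCh38). edgeR 4.0.16 (R 4.3.3) was run on all 6 libraries with condition as the only term: filterByExpr, TMM, robust quasi-likelihood fits, Benjamini-Hochberg adjustment over 16208 genes. SE was taken as the absolute log2 fold change over the root of F. Alternatives were DESeq2 1.42.0, other scalings and filters, a replicate block, division by the count step, summed symbols, each library left out, and other thresholds.

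Members, lists and tests were chosen with earlier results of these data known. Genes named are the 10 members, EIF5A2, AURKC, KIF20A, KIF23, KIF14, PLK1, RHOA, PDCD6IP, TSG101, CHMP4B, the 2 largest falls and rises called in each list, and the 3 genes most like the members, of which 1 is not reported here. HASPIN, BUB1, SGO1, SGO2, CDCA2, CLASP1, CLASP2, KIF20B, NUSAP1, TUBB4B, RANGAP1 and RACGAP1P were named after their values were seen.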

Additional observations from a re-analysis of the deposited data

How the results depend on the processing

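The fall of each of the 10 genes was called in all 15 alternatives run on its fold change (150 of 150 values), with adjusted p at most 0.00931 (BIRC5) over edgeR and DESeq2, and all 10 were called under all 17 settings that give a count. BIRC5 moved most, from -1.87 without si-EIF5A2 replicate 1 to -1.39 without si-EIF5A2 replicate 3. EIF5A2 stayed between -3.10 and -2.82. The replicate numbers did not pair the libraries (correlations of their deviations -0.024, 0.005 and -0.003), and with the replicate number as a block 3731 genes were called in all, in place of 3992, and all 10 members. With an unadjusted p under 0.05 and a fold change over 2, 2370 genes were called in all, 4 of the contractile ring list and 2 of the abscission list; with any fold change, 5974 genes passed in all, 14 of the contractile ring list (8 lower, 6 higher) and 9 of the abscission list (5 lower, 4 higher). The contractile ring median was -0.20 with no filter on low counts, and -0.24 to -0.06 with each library left out. Leaving out a library moved the median of the passenger partners between -2.79 and -2.50, that of the abscission list between 0.01 and 0.16, and that of the S phase markers between -1.74 and -1.61. Calls in these lists with each library left out ran from 7 to 10 (contractile ring) and from 5 to 7 (abscission); the cause of these shifts was not tested. Depth limits low genes such as AURKC, which lies near the level of 3 fragments.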

Other observations

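Outside all lists, 8713 genes had a mean of at least 10 CPM, and the likeness of each to the mean standardized log2 CPM profile of the 10 members was measured by Pearson's r over the 6 libraries, as a description. Among the most alike were NDC1, a transmembrane nucleoporin (r = 0.9997), and RBM19, a ribosome biogenesis factor (0.9996). Their log2 fold changes were -1.08 and -1.21, smaller in size than the median of the members. An r over 0.99 was reached by 288 of these genes. All 10 members separated NC from si-EIF5A2, so a high r mainly marks a clean fall between the groups. Shared control with the members was not tested.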
